A study of Mus musculus with 31 samples.

Results

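RNA polymerase II transcribes the protein-coding genes, and the mRNAs of 10 of its subunits were measured in Ba/F3 cells, an IL-3-dependent mouse lymphoid cell line. The members were chosen by symbol (Polr2a, Polr2b, Polr2c, Polr2d, Polr2e, Polr2f, Polr2g, Polr2h, Polr2i and Polr2k) among the 41255 genes listed in both a total mRNA and a polysomal RNA table. All 10 were found in both. They were chosen with the R98S against WT difference of Polr2b already seen, set against the other subunits. That difference had been seen in total mRNA, polysomal RNA and their ratio. The intervals and calls given for the genotype differences of the members are therefore a description and no evidence about them.

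All cultures were Ba/F3 clones in which endogenous Rpl10, a protein of the large ribosomal subunit, had been lowered by an shRNA and replaced by human RPL10 from a retroviral vector. The vector carried either the WT form or R98S, an arginine-to-serine change found in T-cell acute lymphoblastic leukemia. Each clone was grown from a single cell, with clones 11, 13 and 35 for R98S and 28, 29 and 36 for WT, so the 3 clones of a genotype are its independent units and several libraries share a clone. Total mRNA gave 9 R98S and 8 WT libraries. Polysomal RNA, pooled from the part of the gradient where a transcript carries 2 or more ribosomes, gave 8 R98S and 6 WT libraries, and each of these 14 cultures had a matched total mRNA library. The labels number the replicates 1 to 3, and number 1 held a single WT polysomal library, from clone 29. A further WT total mRNA library, which the study left out because its profile grouped with R98S, was not analysed here, so the WT total mRNA group was selected in part by its profile.

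Reads per library ranged from 8831180 to 22059792, and each subunit had at least 102 reads in every library. Of the 11 pro-B and IL-3 response markers examined, 6 had a mean normalized read count of at least 10 in each group of libraries, Csf2rb and Csf2rb2 being the most abundant, while Pax5, a B lineage factor, was at 0 in every total mRNA library. The sum of this list, nearly all of it Csf2rb and Csf2rb2, lay between 1.102e+05 and 2.224e+05 in R98S and between 5.684e+04 and 1.022e+05 in WT total mRNA. Not every member shared this difference, Ptprc having the higher mean in WT, and the part of these genes in the results was not tested. Rpl10, the gene lowered in all clones, had 901.4 to 2984 normalized read counts in R98S and 620.3 to 5715 in WT total mRNA, so its level did not separate the genotypes. Markers of other cell types were lower but not all absent. In total mRNA the 4 erythroid markers summed to 190.7 to 628.8 normalized read counts in R98S and 277.3 to 852.4 in WT, the 5 T cell markers to 37.2 to 101.2 and 15.36 to 222.8, and the 3 listed macrophage markers to 41.34 to 256.9 and 68.19 to 244.2. In polysomal RNA the erythroid sum reached 254.6 in R98S and 1139 in WT. The sum of the 4 fibroblast markers was at most 12.03 in any library. The recovered reads of the most alike pair of libraries, R98S clone 13 of numbers 1 and 2 in polysomal RNA, differed by a chi-square per gene of 4.77, where counting noise alone gives about 1, and all libraries were kept.

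In the polymerase, the protein of Polr2a is the largest subunit and carries the repeated tail that is phosphorylated through the transcription cycle, and that of Polr2b is the second largest and closes the active site with it. Polr2c encodes a partner of Polr2j in the assembly platform, Polr2d and Polr2g form the detachable stalk, and Polr2i takes part in transcription fidelity. Polr2e, Polr2f, Polr2h and Polr2k encode small subunits that are shared with RNA polymerases I and III.

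The start codon contexts of a few of these mRNAs are shown because the readout that singles out Polr2b is ribosome association. Each sequence gives 15 bases before and 12 after the start codon, which is in capitals, from the GENCODE M21 annotation of GRCm38 (mm10).
Polr2a: cgcgcctgcctcgccATGcacgggggtggc
Polr2b: aaacctttggccaagATGtatgacgccgac
Polr2c: tggcggagggtcgcgATGccgtacgccaac
Polr2h: ttcgtgcccttcgcgATGgcgggcatcctg
Polr2i: agcagcccagtcgctATGgaacccgacggg

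These stretches lie at chr11:69758209-69758238 (minus strand), chr5:77310597-77310626 (plus), chr8:94857541-94857570 (plus), chr16:20717907-20717936 (plus) and chr7:30232331-30232360 (plus), in the order shown. Each spans the end of the 5′ UTR and the beginning of the coding sequence. Counting the A of the start codon as position 1, with no position 0, Polr2b has A at -3 and T at 4. Polr2f and Polr2g have the same pairing, which is found in 6.75% of 9685 genes with an annotated start. All 10 subunits have A or G at -3, as do 86.7% of these genes, and 5 of the 10 have G at 4, as do 54.4%. The annotated 5′ UTR of Polr2b is 465 bases long and holds 2 ATG triplets, against 414 bases and none in Polr2a. Among the subunits 3 have 1 or more ATG in the 5′ UTR (Polr2b, Polr2f and Polr2i), and 51.6% of genes do. These features are a description of the annotated transcripts and were not related to the measurements by a test.

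Polr2b (chromosome 5, 77310147 to 77349324, plus strand, 25 exons) showed one difference that set it apart in size from the rest of the list. In total mRNA its normalized read count ranged from 3015 to 3933 in R98S, with a median of 3331, and from 2262 to 3726 in WT, with a median of 2982. These ranges overlapped, and 2 of 9 R98S libraries lay above all WT libraries. In polysomal RNA the count lay between 1660 and 3306 in R98S (median 2527), against 394 to 1516 in WT (median 777). Here every R98S library lay above every WT library. Of all genes tested, groups did not overlap in 3.53% in total mRNA (2.07% with R98S higher) and in 4.96% in polysomal RNA (3.04% with R98S higher, 1.92% with R98S lower). The lowest R98S values were those of number 3, and the highest WT value was clone 29 of number 2.

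Expressed as a difference on the log2(value + 1) scale, with the replicate number as a block, Polr2b was 0.22 higher in R98S total mRNA (SE 0.075, 95% interval 0.06 to 0.38) and 1.52 higher in R98S polysomal RNA (SE 0.18, interval 1.15 to 1.90), which is 2.87-fold. The ratio of polysomal to total mRNA, taken per culture as the log2 difference, was 1.35 higher (SE 0.19, interval 0.96 to 1.75), or 2.56-fold. The tables were normalized separately, so the absolute level of a ratio has no unit, and only its differences between cultures and genes are read.

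Culture by culture, the log2 ratio of Polr2b in R98S ranged from -0.90 in clone 11 of number 3 to 0.01 in clone 13 of number 2, with a median of -0.47. In WT it ranged from -2.55 in clone 29 of number 3 to -1.04 in clone 29 of number 2, with a median of -1.78. The groups did not overlap. Groups do not overlap in this way, with R98S higher, for 0.104% of the 10627 genes tested for the ratio.

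**Figure D1:**
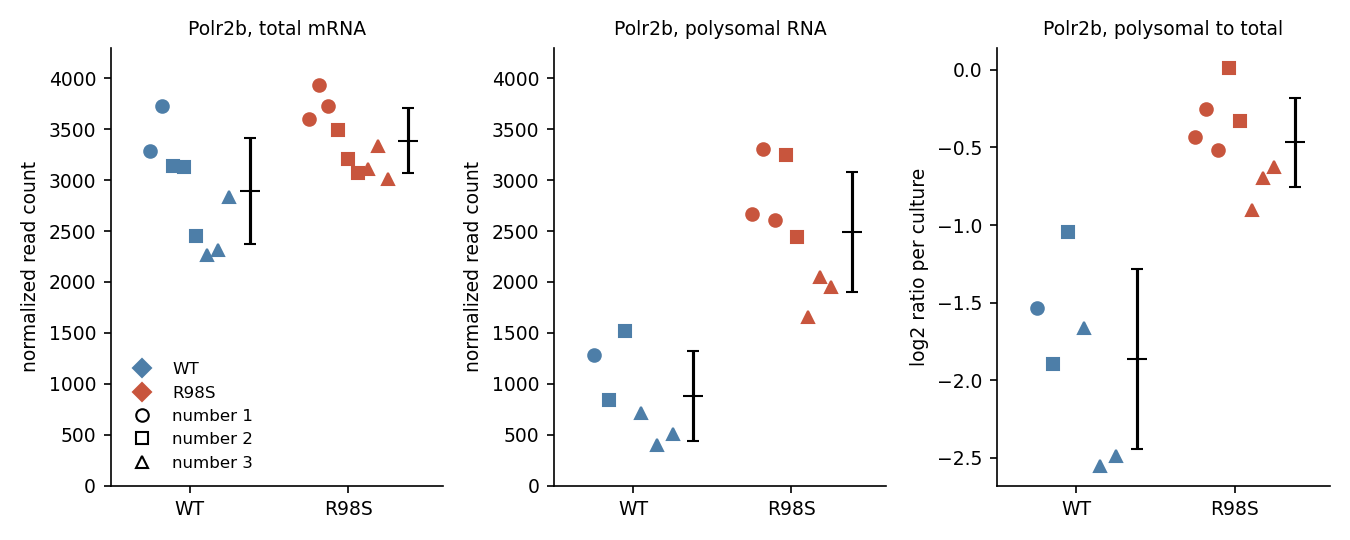
Polr2b in each library, as normalized read count in total mRNA and polysomal RNA and as the log2 polysomal to total ratio of each culture. Symbols give the replicate number, colours the genotype, and bars the mean ± SD of the group. The R98S and WT groups overlap in total mRNA (3015 to 3933 against 2262 to 3726) and are apart in polysomal RNA (1660 to 3306 against 394 to 1516) and in the ratio.

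The same direction was seen within each replicate number. The ratio of Polr2b was higher in R98S by 1.14 in number 1, which rests on 1 WT culture, by 1.31 in number 2 and by 1.49 in number 3. Polysomal RNA gave 1.15, 1.32 and 1.85 in the same order, and total mRNA gave 0.10, 0.17 and 0.36. The clone means of the ratio were -0.67, -0.31 and -0.49 in R98S clones 11, 13 and 35 and -1.78, -1.71 and -2.49 in WT clones 28, 29 and 36. WT clone 36 was represented by 1 culture, and without it the genotype difference was 1.29.

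By its mean ratio Polr2b stood above 6.04% of genes in WT and above 38.7% in R98S. These means pool the replicate numbers, which the genotypes hold in different shares and between which the ratios shifted. Among 1171 genes with a transcript within 10% of the Polr2b length of 4145 bases, the median genotype difference of the ratio was -0.03. The 95th percentile was 0.55, and 3 genes reached the difference of Polr2b. The selection used that difference, so its place among these genes is a description. Noa1, which starts 63 bases from Polr2b on the opposite strand, had a ratio difference of -0.36 (SE 0.15, limma adjusted p = 0.361), and in polysomal RNA it was lower in R98S by 0.41 (limma adjusted p = 0.0328). Polr2b shares 1.82% of its exonic bases with the opposite-strand gene Igfbp7, which was too low to be tested in either table.

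Polr2a (chromosome 11, 69733997 to 69758637, minus strand), the other large subunit, also lay higher in R98S. Its total mRNA ranged from 4599 to 7932 normalized read counts in R98S (median 6263) and from 3488 to 6087 in WT (median 4670). In polysomal RNA the R98S libraries ranged from 554 to 1571 and the WT libraries from 228 to 1473. The groups overlapped in both. The log2 differences were 0.39 (SE 0.11) in total mRNA, 0.78 (SE 0.25) in polysomal RNA and 0.46 (SE 0.26, 95% interval -0.10 to 1.01) in the ratio. The ratio of Polr2a, as a mean that pools the replicate numbers, was among the lowest of all genes in both genotypes. It stood above 0.565% of genes in WT and 0.715% in R98S. The polysomal difference of Polr2a was uneven over the replicate numbers, with 0.64, -0.07 and 1.42 in numbers 1, 2 and 3. That difference was 0.24 and no longer called without number 3. The polysomal call was also lost with clone as a random effect and without the replicate block.

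Polr2c (chromosome 8, 94857450 to 94873535, plus strand), from the assembly platform, moved the other way. In total mRNA the R98S libraries held 564 to 707 normalized read counts (median 647) and the WT libraries 718 to 1148 (median 857), with no overlap. Non-overlap with R98S lower was seen in 1.46% of the 11133 genes tested in total mRNA. In polysomal RNA the range was 624 to 1139 in R98S and 805 to 1823 in WT, and the log2 differences were -0.50 (SE 0.089) in total mRNA and -0.63 (SE 0.13) in polysomal RNA. Its ratio differed by -0.15 (SE 0.19, 95% interval -0.56 to 0.26). Of the 50-base windows of the Polr2c transcript 38.8% occur in other annotated genes, mainly Gm11993, and 18.1% of its exonic bases lie opposite Dok4. Some of its reads may therefore have been discarded by the mapping quality limit or counted with those genes, which was not tested. Dok4 itself was lower in R98S total mRNA by 0.68 on the log2 scale (limma adjusted p = 0.000398), from a mean log2 value of 7.62 in WT, and the part of its reads in the value of Polr2c was not tested.

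Polr2h (chromosome 16, 20717665 to 20722267, plus strand), a shared small subunit, was 0.28 lower in R98S total mRNA (SE 0.11) and 0.46 lower in R98S polysomal RNA (SE 0.15). Total mRNA values were 458 to 606 normalized read counts in R98S and 440 to 1086 in WT, and the groups overlapped. Without number 1 the total mRNA difference was -0.12, without number 3 -0.31, and without the WT library of clone 29 and number 1 it was -0.19. It was no longer called in these fits, nor without clone R98S 11, R98S 35, WT 28 or WT 29, WT clone 28 of number 1 or WT clone 36 of number 3, nor with clone as a random effect or without the replicate block. The polysomal call was lost without number 3, clone R98S 35 or clone WT 28, and without the replicate block. The total mRNA difference within number 1 was -0.68, within number 2 it was -0.02, and within number 3 it was -0.22. Of the 50-base windows of Polr2h 14.5% occur in Gm7511, and the part of those reads was not tested.

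None of the 6 remaining subunits was called in any measure, though Polr2f was in total mRNA without number 1, clone WT 29 or its library of number 1, Polr2i was in the ratio without clone WT 29, and Polr2e was in polysomal RNA within number 3 alone. In total mRNA their log2 differences ran from -0.11 for Polr2e to 0.25 for Polr2f, in polysomal RNA from -0.18 for Polr2e to 0.00 for Polr2f, and in the ratio from -0.18 for Polr2i to 0.05 for Polr2d. The standard errors of these ratio differences were 0.14 to 0.22. For Polr2g, a stalk subunit, the groups were 1173 to 1543 normalized read counts in R98S and 1274 to 1469 in WT total mRNA, and the difference was -0.02 (95% interval -0.16 to 0.13).

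**Figure D2:**
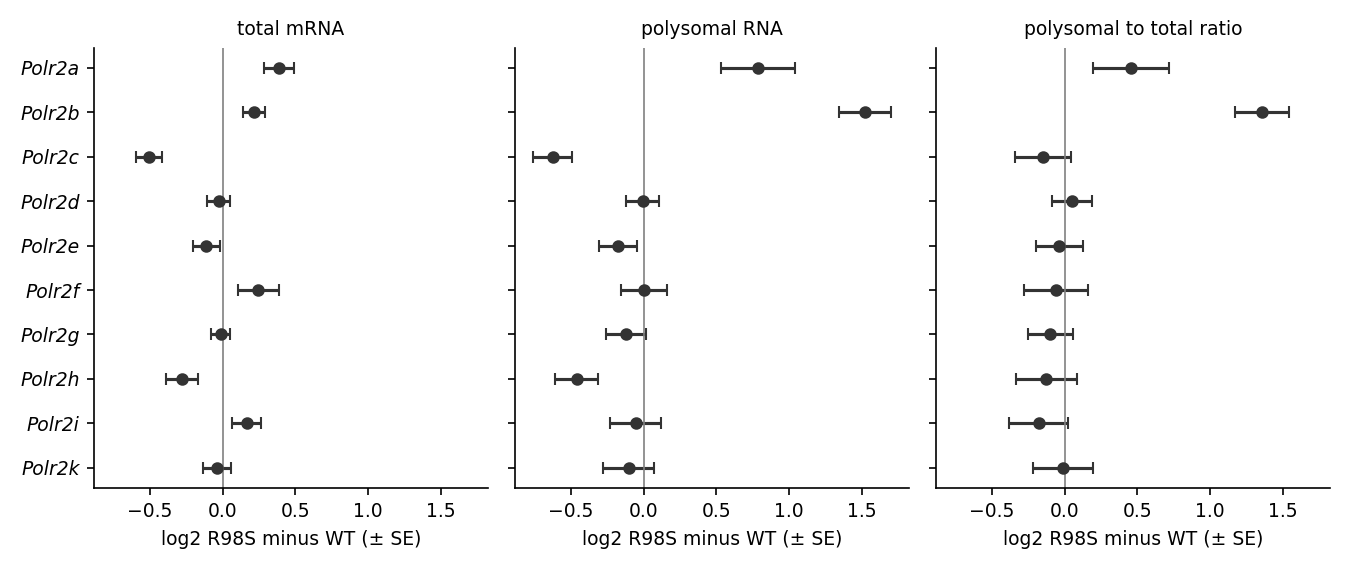
Log2 difference of R98S minus WT for each of the 10 subunits, with its standard error, in total mRNA, polysomal RNA and the polysomal to total ratio (x axis, shared scale). Polr2b lies at 0.22, 1.52 and 1.35, and the ratio differences of the other 9 lie between -0.18 and 0.46.

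Counted over all genes with the limma fit at an adjusted p under 0.1, 2 subunits were called higher (Polr2a, Polr2b) and 2 lower (Polr2c, Polr2h) in both total mRNA and polysomal RNA. With clone as a random effect 3 were called in total mRNA, without Polr2h, and 3 in polysomal RNA, without Polr2a. In total mRNA 38.4% of 11133 genes were called, 18.5% higher and 19.9% lower. In polysomal RNA 30.9% of 10707 genes were called, 15.2% higher and 15.7% lower. In total mRNA the call of Polr2b was lost without number 3 (0.14), without clone R98S 11 (0.21), R98S 13 (0.19) or WT 28 (0.20), and among the libraries with a polysomal partner (0.17). Without number 3 Polr2a was also not called in total mRNA (0.26), where Polr2c alone was, and Polr2c was not called in polysomal RNA (-0.61), where Polr2b alone was. In the ratio 1 subunit, Polr2b, was called higher and none lower, where 0.433% of 10627 genes were called, 0.367% higher and 0.0659% lower. The selection used these contrasts, so the counts describe the list and are no evidence about it. The ratio call of Polr2b was lost without number 3, at a difference of 1.24, and without clone R98S 35, at 1.38. The median log2 difference of the 10 subunits was -0.02 for total mRNA, -0.08 for polysomal RNA and -0.05 for the ratio, and that of all genes was 0.0018, -0.014 and -0.00027.

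The comparison within a culture does not depend on how the tables were scaled against each other. In each culture the log2 ratio of Polr2b minus the mean log2 ratio of the other 9 subunits lay between -1.83 and 0.43 for R98S and between -3.61 and -0.62 for WT. These ranges overlapped. With the replicate number as a block the difference was 1.37 (SE 0.27), and within numbers 1, 2 and 3 it was 0.58, 1.54 and 1.66. In total mRNA Polr2b minus the mean of the other 9 was higher in R98S by 0.24 (SE 0.043), and in polysomal RNA by 1.61 (SE 0.26).

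Levels were also compared between subunits, as normalized read count per kilobase of transcript. In WT total mRNA the order was Polr2g (1546 ± 74.1, SD, n = 8), Polr2e (1160 ± 326), Polr2k (912 ± 128), Polr2f (896 ± 313), Polr2a (705 ± 128), Polr2b (698 ± 126), Polr2h (679 ± 228), Polr2d (651 ± 95.9), Polr2c (570 ± 88.9) and Polr2i (263 ± 59.3). The steps from Polr2g to Polr2e and from Polr2c to Polr2i were larger than the SD of the difference within libraries, and the steps between the other neighbours were smaller. Polr2a and Polr2b, which enter the polymerase in equal numbers, stood 0.01 apart on the log2 scale (SD 0.15), with Polr2a above in 3 of 8 libraries.

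In polysomal RNA Polr2a had the lowest mean per kilobase in both genotypes. In WT Polr2g led (3701 ± 1917, SD, n = 6), Polr2b was ninth (211 ± 107) and Polr2a last (100.4 ± 71.6). The step from Polr2i, the eighth, to Polr2b was 0.94 on the log2 scale, below its SD within libraries of 1.65, and Polr2i was above in 4 of 6 libraries. In R98S Polr2g led again (2925 ± 1343, SD, n = 8), and Polr2b stood seventh (601 ± 143), above Polr2c (525 ± 143) and Polr2i (341 ± 184), with Polr2a last (157 ± 51.7). The step from Polr2i to Polr2a was 1.02, below its SD within libraries of 1.12, with Polr2i above in 7 of 8 libraries. The step from Polr2b to Polr2c in R98S was smaller than its SD within libraries, and Polr2b was above in 5 of 8 libraries. These means pool replicate numbers, between which the polysomal levels shifted.

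The replicate number is a contrast that the selection did not use. The limma F test over the 3 numbers called all 10 subunits in the ratio and all 10 in polysomal RNA, where it called 71.3% and 64.9% of all genes. In total mRNA it called 5 of the 10 and 43.5% of all genes. The small subunits had higher ratios in number 3. Polr2k was higher in number 3 than in number 1 by 2.55 on the log2 scale, Polr2h by 2.35, Polr2i by 1.86 and Polr2c by 0.92, and the limma F test over all 3 numbers gave an adjusted p of 3.4e-06, 9.5e-06, 6.0e-05 and 0.00699 for these genes. The ratio of Polr2a was 0.56 higher in number 2 and 0.63 lower in number 3, each against number 1 (adjusted p of the F test 0.0109). That of Polr2b was 0.21 higher in number 2 and 0.47 lower in number 3 (adjusted p of the F test 0.0324). The difference between a single pair of numbers was not tested.

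Of all genes, 34.1% were called with number 3 above number 1, as were 8 of the 10 subunits, and 37.3% with number 3 below number 1, as were 2 of the 10. The median over the subunits was 1.64 and over all genes -0.06. By the medians of the subunits this shift lay mainly in the polysomal libraries, at 1.39, while total mRNA moved the other way, at -0.27. In each number 3 culture, as an example, Polr2k had a log2 ratio between 1.63 and 2.58, while in number 1 and 2 cultures it lay between -0.81 and 0.21. Of the 50-base windows of Polr2k 30.45% occur in other genes, mainly Gm14567, and the part of those reads was not tested.

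**Figure D3:**
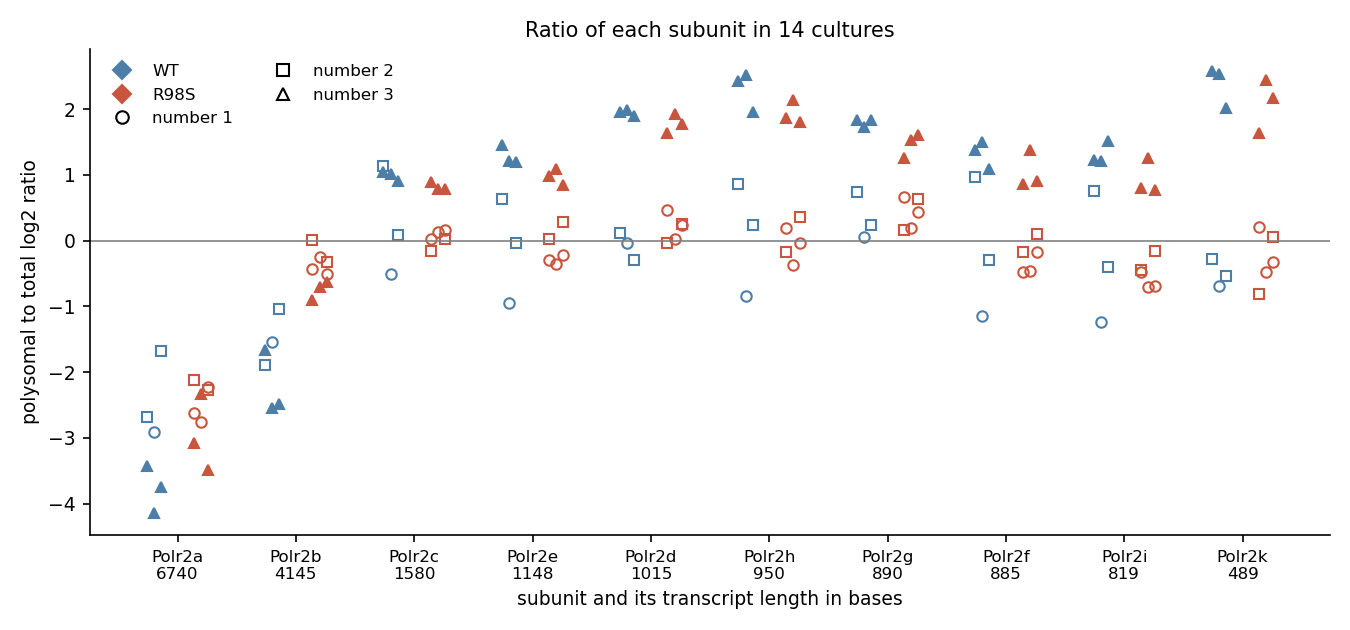
Log2 polysomal to total ratio of each subunit in the 14 cultures, ordered by transcript length (in bases under each name). Colours give the genotype and symbols the replicate number. Within a genotype the number 3 cultures lie above those of numbers 1 and 2 for the 8 shorter transcripts, with 1 WT culture of Polr2c as the exception, and for Polr2b the R98S cultures lie above all WT cultures.

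Transcript length moved with this shift. The transcripts of Polr2a (6740 bases) and Polr2b (4145 bases) are the longest of the list, and those of the other 8 run from 489 bases in Polr2k to 1580 in Polr2c. Over 10126 genes with an annotated length, the ratio in number 3 minus that in numbers 1 and 2 had a Spearman correlation of -0.617 with length, a description across genes measured in the same libraries. The median shift was 1.56 in 369 genes under 750 bases, 0.30 in 2372 genes of 1500 to 2500 bases, and -0.78 in 1164 genes of 6000 bases or more. The shift of Polr2b was -0.59 and that of Polr2a -0.96, beside medians of -0.53 and -0.78 in their length classes, and that of Polr2h was 2.08 beside 1.23. When the log2 values of each library were corrected for transcript length, an alternative added after the data were seen, the genotype difference of the ratio of Polr2b was 1.38, and when they were corrected for GC content it was 1.32. Numbers are labels of replicates, and the part of any handling step in this shift was not tested.

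**Figure D4:**
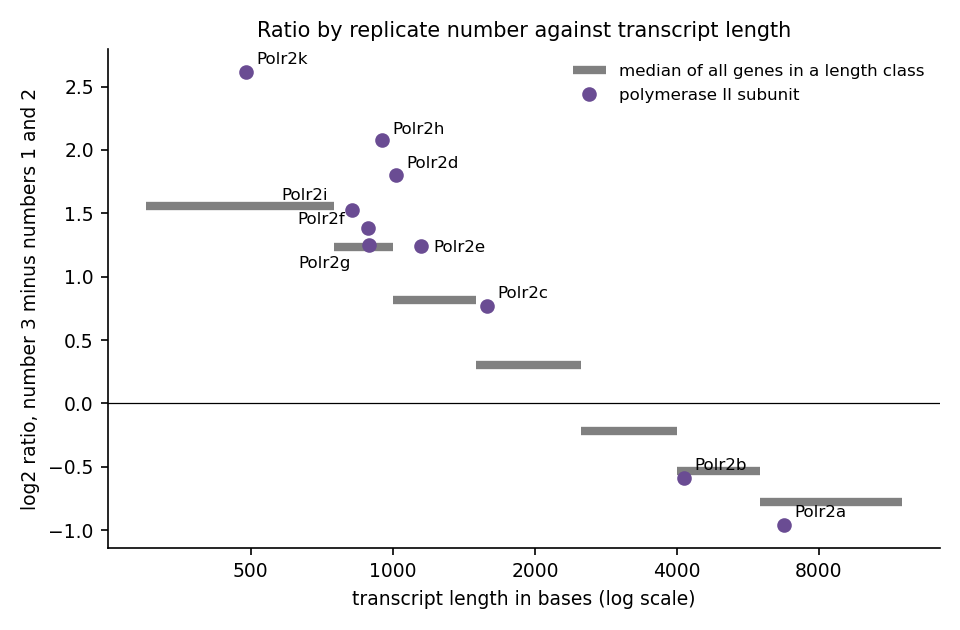
Log2 polysomal to total ratio in number 3 minus that in numbers 1 and 2, averaged over the genotypes, against transcript length on a log scale. Grey bars give the median of all genes in a length class (1.56 under 750 bases, -0.78 from 6000 bases), and points give the 10 subunits, from 2.62 for Polr2k to -0.96 for Polr2a.

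Differences between clones of a genotype were also examined. In the limma F test for clones within genotype none of the 10 was called in any of the 3 measures, and none reached an unadjusted p under 0.05, where the test called 1.88% of genes for total mRNA, 4.17% for polysomal RNA and 0% for the ratio (439 genes at an unadjusted p under 0.05). Without number 3, however, 7 calls among the subunits were made over the 3 measures. The share of all genes called in those fits was not counted. The limma test of whether the genotype difference varied with the replicate number called no subunit either, with 1, 1 and 3 subunits at an unadjusted p under 0.05 in total mRNA, polysomal RNA and the ratio. It called 0%, 0.028% and 0.386% of all genes in the same order.

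Ratios were also compared from culture to culture, with the genotype difference left in the values. After the mean of each replicate number was subtracted, the log2 ratio of Polr2a had a Pearson correlation of 0.64 with that of Polr2b over the 14 cultures, and the other 8 subunits had values between -0.45 and -0.05. Among the 8819 genes whose mean reached 100 in each table, the 5 most like Polr2b were 2310035C23Rik (0.96), Zfp143 (0.94), Supt5 (0.93), Rab37 (0.92) and Fbxo38 (0.91). Cultures share clones and both measures of a culture share its libraries, so these values are a description. The genotype difference of Polr2b, which the selection used, enters every correlation. They therefore do not measure likeness within a genotype. The genotype differences of the ratio in these genes were 0.69, 0.52, 0.95, 1.23 and 0.57. As the genes were picked by this likeness, the shared direction follows in part from the choice.

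The genes that act with the polymerase were examined as lists written by hand. Subunits outside the members came next. Polr2j, the partner of Polr2c, was not called in total mRNA (log2 difference -0.03, limma adjusted p = 0.876), polysomal RNA (0.04, adjusted p = 0.864) or the ratio (0.10, SE 0.14, adjusted p = 0.824). Polr2l, a small subunit shared by the 3 polymerases, was higher in R98S in total mRNA by 0.58 (limma adjusted p = 0.0250) and in polysomal RNA by 0.52 (adjusted p = 0.0680), with a ratio difference of 0.04. The call in total mRNA was lost without number 2 or 3, clone R98S 11 or clone WT 28. The polysomal call was lost in 13 of 38 alternatives. These included the fits without number 1 or 3, clone R98S 13 or clone WT 29, and without R98S clone 13 of number 3. They also included those without any one of the 3 WT clone 29 libraries. Of the 50-base windows of Polr2l 20.9% occur in other genes. Polr2m, which encodes a factor associated with the polymerase, had differences of -0.09, -0.09 and 0.04 and was not called.

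The elongation machinery held the only list members whose ratio was called. Of 28 pausing and elongation factors tested, 2 were called higher in the ratio, where 0.367% of all genes were. Supt5 encodes a subunit of DSIF, which binds the elongating polymerase, and its ratio was 0.95 higher in R98S (SE 0.16, limma adjusted p = 0.0310). Supt6 encodes a histone chaperone that travels with the polymerase, and its ratio was 1.26 higher (SE 0.22, adjusted p = 0.0310).

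The log2 ratio of Supt5 ranged from -1.18 to 0.27 in R98S (median -0.44) and from -2.57 to -0.68 in WT (median -1.52). That of Supt6 ranged from -2.86 to -0.50 in R98S (median -1.45) and from -4.05 to -1.46 in WT (median -3.33). The groups overlapped for both genes. Within numbers 1, 2 and 3 the difference was 0.83, 0.93 and 1.02 for Supt5 and 1.99, 0.85 and 1.17 for Supt6. The same genes rose in polysomal RNA, Supt5 by 1.37 (adjusted p = 7.5e-06) and Supt6 by 1.83 (adjusted p = 7.2e-06), and in total mRNA, by 0.50 (adjusted p = 3.7e-04) and 0.66 (adjusted p = 1.5e-04). The ratio calls were kept when any one culture was left out. They were lost without number 3 (adjusted p = 0.283 and 0.254), without any one of the R98S clones (adjusted p between 0.102 and 0.225), for Supt6 also without number 1 (adjusted p = 0.114), and without the replicate block (adjusted p = 0.547 and 0.664). Over all alternatives the adjusted p ranged from 0.0131 to 0.584 for Supt5 and from 0.00859 to 0.664 for Supt6.

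In the other 26 elongation factors no ratio was called. In total mRNA 9 of the 28 were called higher and 2 lower, where 18.5% and 19.9% of all genes were. The median log2 difference was 0.08, beside 0.00 for all genes. Rtf1, which acts with the PAF1 complex, rose by 0.39 (limma adjusted p = 3.6e-04) with no overlap of the groups, and Ell, which raises the elongation rate, fell by 0.41 (adjusted p = 0.00515). In polysomal RNA 5 were called higher and 2 lower, where 15.2% and 15.7% of all genes were.

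**Figure D5:**
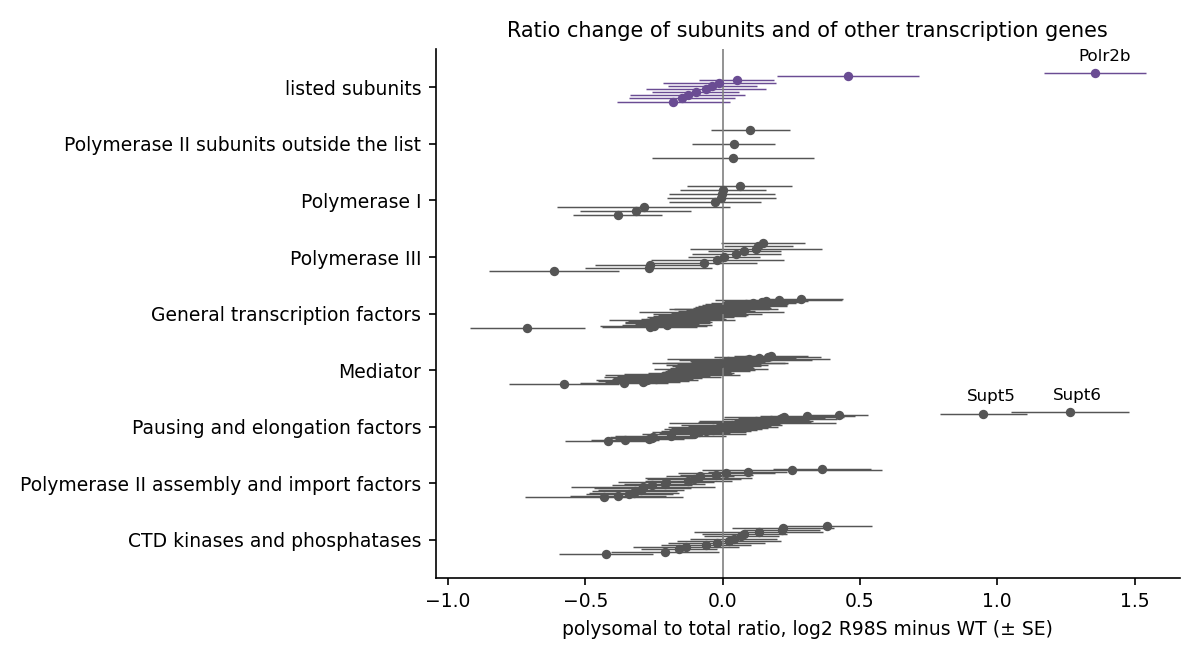
Log2 difference of R98S minus WT in the polysomal to total ratio, with its standard error, for the 10 subunits and for each tested gene of the other lists. Polr2b (1.35), Supt6 (1.26) and Supt5 (0.95) lie to the right of all other genes shown.

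The general transcription factors, which load the polymerase at promoters, had 6 of 32 members called higher and 10 lower in total mRNA (median 0.04). Of all genes 18.5% were called higher and 19.9% lower there. The TFIIE subunit Gtf2e2 fell by 0.71 (limma adjusted p = 1.4e-04), and TFIIB, encoded by Gtf2b, fell by 0.48 (adjusted p = 0.00186). Gtf2h2, of TFIIH, rose by 0.37 (adjusted p = 0.00399), and Taf10, of TFIID, rose by 0.48 (adjusted p = 0.00460), a call lost without number 3. In polysomal RNA 1 was called higher and 6 lower, where 15.2% and 15.7% of all genes were.

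Mediator, which links the polymerase to activators, had 8 of 31 members called higher and 7 lower in total mRNA (median 0.06) and 1 higher and 4 lower in polysomal RNA. The counts of this and the next 2 lists stand beside 18.5% of all genes called higher and 19.9% lower in total mRNA. In polysomal RNA these shares were 15.2% and 15.7%. Med8 rose by 0.49 (limma adjusted p = 5.9e-04), and Med14, Med26 and Med13l fell by 0.38 (adjusted p = 0.00211), by 0.44 (adjusted p = 0.00417) and by 0.35 (adjusted p = 0.00183) in total mRNA. Among 14 kinases and phosphatases of the tail of the largest subunit, 2 were called higher and 2 lower in total mRNA, and 2 higher and 2 lower in polysomal RNA. Of the lower calls Cdk13 was made in both fractions, Cdk7 in total mRNA alone and Ctdp1 in polysomal RNA alone. The call of Cdk7 was lost in 23 of 42 alternatives, among them those without any one of the 3 numbers. The polysomal call of Cdk13 was lost in 15 of 38, among them those without number 1 or 3. Cdk13 fell by 0.32 in total mRNA (adjusted p = 0.00897). Ctdp1, a phosphatase of the tail, fell by 0.43 in polysomal RNA (limma adjusted p = 0.0151), and that call was lost without number 3 and without the replicate block. Of the 20 assembly and import factors, 2 were called higher and 1 lower in total mRNA, and 1 higher and 3 lower in polysomal RNA. Ruvbl2, of the chaperone complex that assembles the polymerase, fell by 0.41 in polysomal RNA (limma adjusted p = 0.0252), a call that was lost without number 3 or clone R98S 35 and without the replicate block (adjusted p = 0.103).

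RNA polymerases I and III, which make ribosomal and transfer RNA, gave the paralogs of the large subunits. Polr1b, the counterpart of Polr2b in polymerase I, had a ratio difference of -0.32 (SE 0.20, limma adjusted p = 0.551), and Polr3b, its counterpart in polymerase III, had -0.02 (SE 0.24, adjusted p = 0.983). The counterparts of Polr2a, Polr1a and Polr3a, had -0.29 (adjusted p = 0.758) and 0.12 (adjusted p = 0.879). Of 8 polymerase I members 1 was called higher and 1 lower in total mRNA, where 18.5% and 19.9% of all genes were. In polysomal RNA 1 of them was called higher and 1 lower, where 15.2% and 15.7% of all genes were. The lower calls were different genes, Polr1c in total mRNA and Cd3eap in polysomal RNA, the first lost without any one of the 3 numbers and the second without number 3 or clone R98S 35. Polr1e rose by 1.08 in total mRNA (adjusted p = 4.4e-04) and by 0.91 in polysomal RNA (adjusted p = 3.5e-04) with a ratio difference of -0.0048. Of 11 polymerase III members 2 were called higher and 1 lower in total mRNA. Polr3e rose by 0.65 (limma adjusted p = 0.0195), lost without number 2 or 3 or clone R98S 11, Polr3a rose by 0.28 (adjusted p = 0.0497, lost in 14 of 42 alternatives), and Polr3gl fell by 0.44 (adjusted p = 0.0152), lost without clone WT 28. In polysomal RNA limma called none, with none at an unadjusted p under 0.05, where 35.6% of all genes were, and none by edgeR or DESeq2.

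Apart from Supt5 and Supt6, none of the 143 tested genes of these lists was called in the ratio by limma, 12 reached an unadjusted p under 0.05, as did 12.1% of all genes, and edgeR called none. The lists were written with earlier results of these data known, and the counts of a list are read beside the share of all genes called in each measure, as given above for the subunits.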

How the data were processed

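According to the methods of the study, poly(A) RNA libraries came from a stranded kit, reads lost their opening base, and those matching rRNA or tRNA were discarded. The rest was aligned to mm10 with TopHat2 2.0.11, and counting per gene used the exonic reads that passed a mapping quality limit. The processing notes of the submitters also name HTSeq, and the use of strand is not given in the sources used here. The deposited unit is a normalized signal for each gene, namely read counts that the authors divided by DESeq2 size factors within each table. Reads were recovered as whole multiples of the smallest value above 0 (tolerance 1e-06) for 100% of values in all 31 libraries, and the intervals given cover the spread between libraries. No value column was left unused.

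Values were transformed as log2(value + 1), those genes whose mean reached 10 entered the tests, and limma 3.58.1 (R 4.3.3) compared R98S and WT with a variance trend and the replicate number as a block. Fold changes stand on this scale, where those of low genes come out too small. Benjamini-Hochberg adjustment covered all genes tested, a call means an adjusted p under 0.1, and tests were two-sided. The polysomal to total ratio was the log2 difference within a culture, in genes whose mean reached 10 in each table. The study tested translational efficiency with Babel, which was not used here. F tests addressed the replicate number, clones within genotype and the interaction. As several libraries share a clone, p-values in part measure the spread within clones.

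Deviations of R98S and WT libraries of the same number correlated for numbers 1, 2 and 3 with r = 0.62, 0.55 and 0.48 for total mRNA, r = 0.70, 0.67 and 0.87 for polysomal RNA and r = 0.67, 0.54 and 0.81 for the ratio, so the numbers were taken to pair the cultures. In polysomal RNA numbers 1 and 2 were not told apart, since R98S of number 1 correlated with WT of number 2 with r = 0.77 and R98S of number 2 with WT of number 1 with r = 0.74. In the ratio the same pairs gave 0.45 and 0.18. The labels do not say what a number marks. On simulated counts 63% of 100 genes changed 2-fold and 100% of 100 genes changed 4-fold were recovered in the ratio, where 9.94% of the calls were false. These counts were drawn independently for each library, with a fixed dispersion and no effect of clone or replicate number. In the data the ratios shifted between numbers and libraries share clones, so this recovery does not measure what the fits can find here.

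The members and lists were chosen with earlier results of these data known. Named are the members, Polr2j, Polr2l and Polr2m, the paralogs of the large subunits, up to 4 members of each list with the smallest adjusted p over the 3 measures (fewer where a list is described by counts), and the 5 genes most like Polr2b. Noa1, the neighbour of Polr2b, and Dok4, opposite Polr2c, were added after their values were seen. Alternatives were no block, other pseudocounts, filters and scalings, edgeR 4.0.16 and DESeq2 1.42.0 on recovered reads, clone as a random effect, leaving out libraries, clones or numbers, and each number alone. Gene models came from GENCODE M21, which gave a length for 95.3% of the genes tested for the ratio.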

Additional observations from a re-analysis of the deposited data

Results flagged for a closer look

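Of 60 groups of values examined over the 10 subunits, 1 held a library far from the rest. Polr2k in R98S total mRNA was 591.1 normalized read counts in clone 35 of number 1, and the nearest of the other 8 libraries had 458.9. The gap was 0.605 of the range of the group. Chance would give about 3 such groups in 60. No R98S against WT difference of Polr2k was called.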

How the results depend on the processing

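The differences of Polr2b kept their direction under every alternative run. Over 38 alternatives in polysomal RNA they ranged from 1.15 to 1.85, over 42 in total mRNA from 0.10 to 0.36, over 37 in the ratio from 1.14 to 1.49, and over 36 against the other subunits from 0.58 to 1.76. Without the replicate block the pairing was ignored, and 1449 genes and 2 subunits (4 with the block) were called in polysomal RNA, 5 genes in the ratio, and 43 list members over the 3 measures (87 with the block). The ratio called 46 genes with the block, 23 with a mean filter of at least 1, 77 with clone as a random effect, and 94 with the GC correction added after the data were seen. Within numbers 1, 2 and 3 alone, 1366, 241 and 1047 genes and 2, 0 and 1 subunits were called in total mRNA, 296, 1 and 4 genes in the ratio, with no subunit in number 2 or 3. In polysomal RNA the 3 numbers alone gave 438, 321 and 2234 genes and 1, 0 and 5 subunits, and Polr2a reversed to -0.070 in number 2. In number 1 alone the single WT polysomal library was assumed to vary like the R98S ones.

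Leaving out a number, clone or library gave 2330 to 4428 genes in total mRNA, 1266 to 3800 in polysomal RNA and 1 to 605 in the ratio. The lowest counts in total mRNA and polysomal RNA came without number 3. In the ratio, 1 gene was called without clone R98S 35, 4 without clone R98S 11, 25 without clone R98S 13 and 6 without number 3. There 605 were called without clone WT 29, 482 without its culture of number 1, and 135 without WT clone 28 of number 2, and 26 to 29 without any of 7 other cultures (R98S 35 of numbers 1, 2 and 3, R98S 13 of number 2, WT 29 of numbers 2 and 3, WT 28 of number 3). Subunits called ranged from 1 to 4 in total mRNA (1 without number 3, 2 without clone R98S 11 or WT 28) and from 1 to 4 in polysomal RNA (1 without number 3). They ranged from 0 to 2 in the ratio (0 without number 3 or clone R98S 35, 2 without clone WT 29). Clone calls of subunits ranged from 0 to 7 (7 without number 3) and number calls from 21 to 25, without a count of all genes in these fits. List calls ranged from 28 to 78 (28 without number 3, 53 without number 2, 50 without clone WT 28, 54 without clone R98S 11). The cause was not tested, other than that these fits hold fewer samples. Of 1926 alternative values of 48 named gene results, 1620 kept direction and call, 305 kept direction only and 1 reversed.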
